A study of Mus musculus with 6 samples.

Results

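The chaperones of the Hsp70, Hsp90 and DnaJ families, with their BAG cochaperones and the Hsp60, Hsp10 and Hsp110 genes, were examined in sorted cells of the newborn mouse bladder. Members were all probe sets whose single annotated gene symbol begins with Hspa and a digit, Hsp90, Dnaja, Dnajb or Dnajc, or is Bag1 to Bag6, Hspd1, Hspe1 or Hsph1. The rule took 164 of 45037 probe sets, which stand for 68 genes, and used no measured value. Of these genes, 63 were above the filter on dim signals and were tested. The other 5 (Hspa1l, Dnajb7, Dnajc22, Dnajc5b and Dnajc5g) were not, and Hsp90ab1 and Dnajc19 were not analysed here.

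Both groups came from FVB/N males of postnatal day 2 with 2 transgenes, SMGA/EGFP (EGFP driven by the smooth muscle gamma actin promoter) and SMAA/EYFP (EYFP driven by the smooth muscle alpha actin promoter). The bladder was dissected, digested with Blendzymes and sorted by fluorescence into EGFP+EYFP- cells, called single-positive here (3 arrays), and EGFP+EYFP+ cells, called double-positive (3 arrays). The labels give detrusor muscle as the tissue of either group. RNA was amplified in 2 rounds and hybridised to Affymetrix MOE430 arrays, 1 array per unpooled sample, each with 1 signal per probe set in arbitrary units. Whether the replicates of a group stem from different mice is not stated, and the p-values therefore describe variation among these arrays, technical variation included. Changes are double-positive minus single-positive in log2(signal + 25.042), an offset that makes changes of dim genes appear smaller.

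Hsp70 proteins bind exposed hydrophobic stretches of unfolded proteins in a cycle of ATP hydrolysis. DnaJ proteins (also called Hsp40) bring substrates to Hsp70 and stimulate its ATPase, and BAG proteins and Hsp110 release the nucleotide so that the cycle can start again. Hsp90 acts later, on signalling proteins such as kinases and steroid receptors, and Hsp60 with Hsp10 forms the folding chamber of mitochondria. Some members are made at all times (Hspa8), some after heat or other stress through the heat shock factor Hsf1 (Hspa1a, Hspa1b, Dnajb1), and some when unfolded proteins build up in the endoplasmic reticulum (Hspa5, Hsp90b1). In muscle, Bag3 works with Hspa8 and the small heat shock protein Hspb8 to clear damaged filamins.

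The 6 arrays had median signals of 147 to 199.8, and the log2 ratio of 3' to 5' control signal of Actb, a measure of RNA length, ran from 1.69 to 2.58 on single-positive and from 1.48 to 3.00 on double-positive arrays. Of the genes behind the reporters, Actg2 fell (log2 change -2.54, limma adjusted p = 0.000246). Acta2, whose promoter drives EYFP, had -0.07 on its brightest probe set. The others had -4.31 and -3.07 (limma adjusted p over all probe sets 0.000483 and 0.0765). The brightest is a shared probe set, which can take signal from other transcripts. It ranked between 11 and 117 on the arrays, near the top of the range, where differences can be compressed, and whether they were was not tested. The double-positive arrays thus did not have the higher Acta2 signal that their label would give, and the groups are named by their labels throughout. Whether the group labels were exchanged was not tested, and an exchange would turn the sign of every change given here. Of the smooth muscle markers, 9 of 10 fell in limma, beside 4.38% of all genes tested. Their summed signal was 290594 to 374138 on the single-positive and 105706 to 145689 on the double-positive arrays. Among markers of other cells, 12 of 12 leukocyte, 8 of 12 urothelium, 4 of 8 endothelium and 3 of 5 Schwann and nerve genes fell (background 4.38%). Of the fibroblast genes, 0 of 6 passed in limma (2 had an unadjusted p under 0.05), and 3 of 5 cell cycle genes rose (background of rises 1.98%). Given as the range of the single-positive and then of the double-positive arrays, summed signals were 80660.3 to 110941 and 9686 to 18252 for leukocyte markers, 27419 to 44685 and 5221 to 8649 for urothelium, 30866 to 39776 and 5481 to 8343 for endothelium, 8102 to 9725 and 1158 to 2069 for Schwann and nerve, 266692 to 310690.4 and 262916 to 365682 for fibroblasts and 49496 to 56970.5 and 79759 to 91019.7 for the cell cycle. The fibroblast ranges overlapped, the cell cycle range was higher in the double-positive arrays, and the others were lower there, without overlap. No marker was listed at 0, and Krt15, Pecam1 and Snap25 were below the level of the filter in the double-positive arrays, with mean signals of 14.4, 86.3 and 14.7. The part of these cells in the chaperone values was not tested, and in sorted bulk samples fewer cells of a type and less RNA per cell cannot be told apart.

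The changes of most chaperone genes between the sorted populations were small. Hspa1a and Dnajb1, a heat-inducible Hsp70 and its DnaJ partner, were higher in the double-positive arrays, and Bag2 and Dnajb4 were lower. These 4 of 63 tested genes passed an adjusted p of 0.05 in limma (6.35%), beside 6.37% of all 13464 genes tested, so that their share was near the background. The 2 that rose stood beside a background of 1.98% and the 2 that fell beside 4.38%. The median change of the 63 genes was 0.04 on the log2 scale, against 0.02 for all genes, with 35 changes above 0 and 28 below. Their median absolute change was 0.24 against 0.32 for all genes, and 6 of them (9.52%) had changes of more than 1 in either direction, against 13.0% of all genes. The median SE was also smaller, 0.27 for the members against 0.34 for all genes, and its part in the smaller changes was not tested. For 13 of the 63 members (20.6%, background 22.4%) no value of one group lay within the range of the other, with 9 higher (background 10.5%) and 4 lower (background 11.9%) in the double-positive arrays. At an unadjusted p of 0.05, 10 of 63 members passed beside a background of 17.6%.

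**Figure D1:**
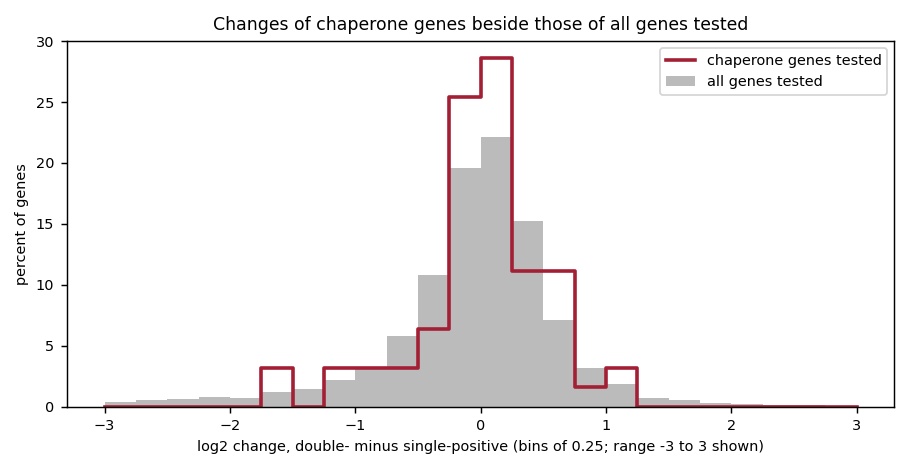
Percent of genes (y axis) in bins of 0.25 of the log2 change, double-positive minus single-positive (x axis), for the chaperone genes tested (red line) and all genes tested (grey bars). The chaperone genes lie closer to 0 than all genes, with a median absolute change of 0.24 against 0.32. Their median SE is also smaller, 0.27 against 0.34, and its part was not tested.

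The count of 4 depended on single arrays. When single arrays were omitted it was 2 for each of the single-positive arrays and for double-positive array 2, 1 for double-positive array 1, and 5 for double-positive array 3. It was 1, Bag2 alone, with median centring of the arrays or with no variance trend. The share of all genes moved too, from 6.37% in the main fit. It was 4.18%, 3.6% and 3.46% without single-positive arrays 1, 2 and 3, where the members had 3.17%. Without double-positive arrays 1, 2 and 3 it was 4.74%, 5.67% and 8.04%, with 1.59%, 3.17% and 7.94% of members. With median centring and with no trend it was 5.16% and 4.69%, with 1.59% of members in either.

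Among the heat-inducible chaperones, Hspa1a had signals of 24205, 23302 and 22579 on the single-positive arrays and 33889, 35371 and 35746 on the double-positive arrays. Each double-positive value lay above each single-positive value, and the arrays within a group were close together. The mean rose 1.5-fold, from 23362 ± 815 to 35002 ± 982 (SD, n = 3 each), a log2 change of 0.58 (SE 0.13, limma adjusted p = 0.0236). The call was lost when any 1 array other than double-positive array 3 was left out (limma adjusted p between 0.0557 and 0.0942), with no variance trend (0.206) and with median centring (0.177). The change was 0.56 to 0.61 in those array omissions, 0.58 with no trend and 0.64 with median centring.

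Dnajb1 (Hsp40), the DnaJ protein that serves inducible Hsp70, gave 24595, 25971 and 23404 on the single-positive arrays and 37249.8, 42632 and 33104 on the double-positive arrays. Again no double-positive value was as low as any single-positive value, and double-positive array 2 was highest. The signal rose 1.53-fold, from 24656 ± 1285 to 37662 ± 4777 (SD, n = 3 each), a log2 change of 0.60 (SE 0.14, limma adjusted p = 0.0335). A further probe set of Dnajb1 read 8079.98, 8679.5 and 8804 on the single-positive arrays and 18705, 19192 and 14778 on the double-positive arrays, a log2 change of 1.03 (SE 0.18) with a limma adjusted p of 0.0136 over all probe sets. Both probe sets of the gene were thus higher in the double-positive arrays without overlap. In the fit over all probe sets the brighter one did not pass (limma adjusted p = 0.0597). Its call in the fit over genes was lost without any 1 array other than double-positive array 3 (limma adjusted p between 0.0924 and 0.121). That call was also lost with no filter (0.0599), with no variance trend (0.223) and with median centring (0.139). The change was 0.51 to 0.64 in those array omissions, 0.60 with no filter or no trend, and 0.66 with median centring.

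Hspa1b, the neighbouring copy of Hspa1a that codes for nearly the same protein, gave no such separation. Its signals were 20699, 20846 and 21431 on the single-positive arrays and 24069, 13689.7 and 25368 on the double-positive arrays. The single-positive arrays agreed closely, while double-positive arrays 1 and 3 were above them and double-positive array 2 was well below, so that the groups overlapped. The log2 change was -0.05 (95% interval -0.55 to 0.45), and the 2 other Hspa1b probe sets had -0.04 and -0.05. Transcripts of the 2 copies are so alike that a probe set of one can take signal from the other, so the assignment of each signal is uncertain, and the difference between the copies was not tested.

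**Figure D2:**
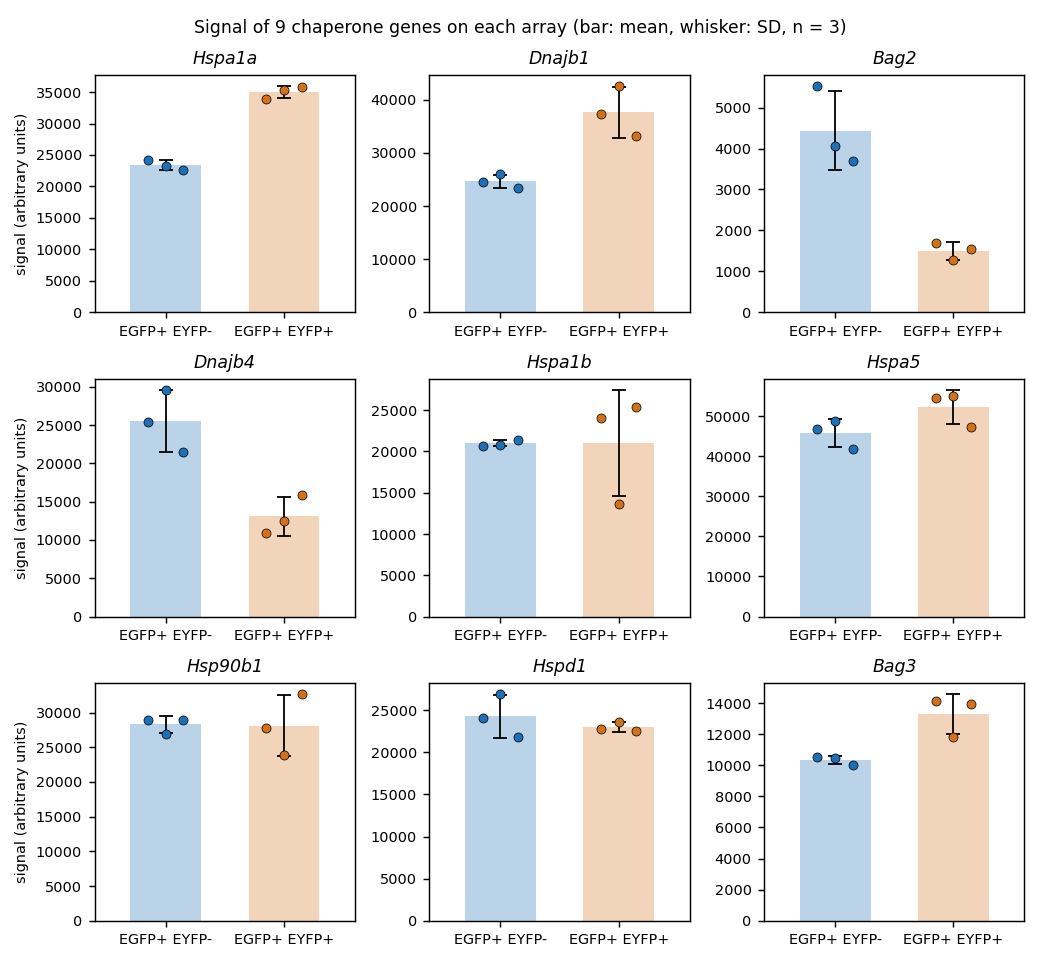
Signal in arbitrary units (y axis, from 0) of 9 chaperone genes on each array, grouped by reporter state (x axis), with points for arrays, bars for means and whiskers for the SD of 3 arrays. Groups are apart for Hspa1a, Dnajb1, Bag2, Dnajb4 and Bag3, and overlap for Hspa1b, Hspa5, Hsp90b1 and Hspd1.

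The sequences before the start sites of Hspa1a, Hspa1b and Dnajb1 are shown because only the first and the last of these genes passed, although all are classic targets of Hsf1. They were taken from RefSeq (GRCm38.p6), 250 bases before to 50 bases after a listed start, and 55 of the 68 genes had such a window. Capitals mark a pair of heat shock units, GAANNTTC or TTCNNGAA, each of which reads the same on both strands.

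Hspa1a: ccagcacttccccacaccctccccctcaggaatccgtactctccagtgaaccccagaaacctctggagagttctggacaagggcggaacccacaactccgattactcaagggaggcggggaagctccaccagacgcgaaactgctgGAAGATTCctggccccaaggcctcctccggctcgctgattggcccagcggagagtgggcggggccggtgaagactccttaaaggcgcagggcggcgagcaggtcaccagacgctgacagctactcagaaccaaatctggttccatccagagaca

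Hspa1b: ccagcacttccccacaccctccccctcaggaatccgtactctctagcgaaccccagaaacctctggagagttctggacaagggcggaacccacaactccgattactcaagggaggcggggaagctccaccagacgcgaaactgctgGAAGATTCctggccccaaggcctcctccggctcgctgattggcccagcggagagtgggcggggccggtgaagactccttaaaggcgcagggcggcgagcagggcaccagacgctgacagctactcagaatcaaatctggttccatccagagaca

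Dnajb1: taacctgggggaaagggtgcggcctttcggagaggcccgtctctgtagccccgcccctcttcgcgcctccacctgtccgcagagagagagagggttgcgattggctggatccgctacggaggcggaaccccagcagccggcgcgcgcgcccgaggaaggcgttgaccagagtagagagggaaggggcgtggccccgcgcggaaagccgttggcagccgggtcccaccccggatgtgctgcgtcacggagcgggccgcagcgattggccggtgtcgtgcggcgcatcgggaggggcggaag

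The windows lie at chr17:34972107-34972406, minus strand, at chr17:34959189-34959488, minus strand and at chr8:83607925-83608224, plus strand. Hspa1a and Hspa1b carried the same pair, GAAGATTC, whose first base lies 104 bases before the start, and their windows were identical at 296 of 300 bases (98.7%). Neither of the 2 Dnajb1 windows held a pair. A pair was found in 15 of 72 chaperone windows (20.8%) and in 15.1% of all 32851 windows. Some of these chaperone windows overlap, so that a pair can be counted more than once.

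The longer run of heat shock units, a pair GAANNTTC followed by NNGAA or a pair TTCNNGAA followed by NNTTC (either strand, and so with 2 overlapping pairs), stood in 6 of 72 chaperone windows (8.33%) and in 0.603% of all windows. It was found for Hspd1, Hspe1, Hsph1 and Dnajb6, none of which passed the test. The windows of Hsph1 overlap and hold the same run, as do those of Dnajb6, and Hspd1 and Hspe1 share a stretch on opposite strands. The share of 8.33% thus counts the same runs more than once. The window of Hspe1 (chr1:55087898-55088197, plus strand) is shown as an example, with pairs that begin 89, 84 and 79 bases before the start, and it overlaps that of Hspd1 on the opposite strand.

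Hspe1: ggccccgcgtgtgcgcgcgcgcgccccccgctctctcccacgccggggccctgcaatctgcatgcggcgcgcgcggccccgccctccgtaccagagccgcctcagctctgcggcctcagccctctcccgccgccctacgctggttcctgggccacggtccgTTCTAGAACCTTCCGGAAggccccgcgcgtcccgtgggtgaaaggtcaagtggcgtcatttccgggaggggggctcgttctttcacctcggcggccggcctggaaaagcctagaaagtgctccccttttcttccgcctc

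Hsph1 (Hsp110), a nucleotide exchange factor of Hsp70, had 10655, 8498 and 8484 on the single-positive arrays and 11876, 10121 and 9824 on the double-positive arrays, with overlapping groups and a log2 change of 0.21 (95% interval -0.22 to 0.63). Dnajb6, a DnaJ protein that keeps aggregation-prone proteins soluble, had a log2 change of -0.01 (95% interval -0.48 to 0.46) on its brightest probe set. All 4 tested probe sets of Dnajb6 had changes below 0. The furthest, on a dimmer one, was -0.46 without overlap and did not pass (limma adjusted p over all probe sets 0.412). A motif match is a description of letters and no measure of binding.

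Further stress-responsive members gave smaller differences. Bag3, the stress-induced BAG protein of muscle, had 10502, 10444 and 10024 on the single-positive arrays and 14109, 11793 and 13933 on the double-positive arrays. All double-positive values were above the single-positive ones, but the log2 change of 0.36 (95% interval -0.02 to 0.74) did not pass (limma adjusted p = 0.32). Dnaja1, a farnesylated DnaJ partner of Hspa8, had 26393, 28896 and 26753 on the single-positive arrays and 28179.9, 28918 and 26939.99 on the double-positive arrays, overlapping groups and a log2 change of 0.04 (95% interval -0.26 to 0.33). Of 10 heat-inducible cytosolic members grouped after their values were known, 2 rose (background 1.98%), 1 fell (background 4.38%) and 7 did not pass, with a median change of 0.07. Since the grouping was made with the values known, nothing is read from its count.

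Immediate-early genes, which respond within minutes to tissue dissociation, were read beside them since the cells had been digested and sorted. None of 22 passed in limma (background 6.37%), 5 had an unadjusted p under 0.05 (background 17.6%), 18 were above 0, and the median change was 0.20. The groups of 7 (31.8%) did not overlap, all higher in the double-positive arrays, beside a background of 10.5% higher and 22.4% in either direction. Their summed signal was 610850.5 to 708827 on the single-positive and 666616 to 814684 on the double-positive arrays. The smallest p-values belonged to Ier2 (log2 change 0.45), the nuclear receptor Nr4a1 (0.42) and the AP-1 subunit Junb (1.46), with limma adjusted p of 0.0892, 0.111 and 0.152. Under the alternatives, 0 to 2 of the 22 passed, 2 of them with array weights or without double-positive array 3. The part of dissociation in the Hspa1a and Dnajb1 values was not tested.

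Bag2, a BAG protein that exchanges the nucleotide of Hsp70 and inhibits the ubiquitin ligase Stub1 (CHIP), gave 5529.8, 4059 and 3706 on the single-positive arrays and 1704, 1273 and 1537 on the double-positive arrays. Every double-positive value was well below every single-positive value, and single-positive array 1 was the highest. The mean fell 2.95-fold, from 4432 ± 967 to 1505 ± 218 (SD, n = 3 each), a log2 change of -1.53 (SE 0.27, limma adjusted p = 0.0078). Bag2 has 1 probe set on the array, and in the fit over genes it passed under each of the 18 alternatives run, with changes between -1.65 and -1.36. In the fit over all probe sets it did not pass when any 1 single-positive array was left out. Stub1 itself had a log2 change of 0.13 (95% interval -0.40 to 0.65).

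Dnajb4, a DnaJ protein abundant in muscle, gave 25415, 29579 and 21483 on the single-positive arrays and 10921, 12477 and 15815 on the double-positive arrays. The groups were apart, with the highest double-positive value on array 3. The signal fell 1.95-fold, from 25492 ± 4049 to 13071 ± 2501 (SD, n = 3 each), a log2 change of -0.97 (SE 0.19, limma adjusted p = 0.0141). A second probe set of Dnajb4 had -0.90 without overlap but did not pass over all probe sets (limma adjusted p = 0.158), and the dimmest, with signals of 26.0 to 179.9, had 0.61. Averaged over the 3 the change was -0.42 (limma adjusted p = 0.487), and omitting double-positive array 1 or one of single-positive arrays 1 and 2 ended the call (limma adjusted p between 0.0523 and 0.0814), as did no variance trend (0.0898) and median centring (0.113). The change was -0.96 to -0.85 in those array omissions, -0.97 with no trend and -0.91 with median centring.

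Bag2 and Dnajb4 fell in the same arrays in which smooth muscle, leukocyte, urothelial and endothelial markers fell, with the summed signals given above, and the part of those cells was not tested. Their windows are printed because these genes fell furthest among the members that passed. Neither held a pair of heat shock units or a CArG box, the element of serum response factor known from smooth muscle genes, which stood in 1.63% of all windows (on either strand) and in 1 of 72 chaperone windows, that of Dnajc16.

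Bag2: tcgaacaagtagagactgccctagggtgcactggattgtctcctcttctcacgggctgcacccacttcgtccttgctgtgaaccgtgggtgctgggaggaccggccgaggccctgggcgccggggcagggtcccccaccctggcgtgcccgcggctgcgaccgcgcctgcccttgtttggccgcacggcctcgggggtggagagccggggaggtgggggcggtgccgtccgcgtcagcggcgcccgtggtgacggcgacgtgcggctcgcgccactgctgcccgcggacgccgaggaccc

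Dnajb4: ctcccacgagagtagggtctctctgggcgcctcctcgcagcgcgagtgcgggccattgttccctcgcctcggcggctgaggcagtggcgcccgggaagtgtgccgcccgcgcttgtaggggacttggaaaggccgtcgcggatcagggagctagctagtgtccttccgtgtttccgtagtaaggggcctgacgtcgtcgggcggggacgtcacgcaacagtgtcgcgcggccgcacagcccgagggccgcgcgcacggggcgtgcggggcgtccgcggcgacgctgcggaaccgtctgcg

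They lie at chr1:33757701-33758000, minus strand and at chr3:152210034-152210333, minus strand. A second listed start of Dnajb4 had a pair, TTCTAGAA, 14 bases before it. That no match was found concerns these letters in these windows and nothing else.

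The other 5 BAG genes, Bag3 among them, did not pass. Bag5, a member with several BAG domains, had 4074, 4650.4 and 3627 on the single-positive arrays and 5641, 5617 and 4715 on the double-positive arrays, with groups apart and a log2 change of 0.37 (95% interval -0.12 to 0.86). Bag4 had 0.52, Bag6, which guards newly made membrane proteins, had 0.30, and Bag1, which links Hsp70 to the proteasome, had 0.04. All 5 had changes above 0, beside the fall of Bag2, as had 6979 of all 13464 genes tested. The groups of Bag1, Bag4 and Bag6 overlapped, and nothing is read from the shared sign.

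Of 12 Hsp70 genes tested, 1 rose (Hspa1a), none fell and 11 did not pass (8.33% called, near the background of 6.37%), with a median change of 0.04. Hspa8 (Hsc70), the constitutive Hsp70 of the cytosol, gave 72361, 69873 and 60429 on the single-positive arrays and 85239, 79269 and 52669 on the double-positive arrays. The groups overlapped, and double-positive array 3 held the lowest value. Its log2 change was 0.07 (95% interval -0.32 to 0.46), and its probe set ranked between 3 and 32 on the arrays, near the top of the range, where differences can be compressed. Whether they were was not tested. The 3 other Hspa8 probe sets had 0.11, 0.21 and 0.75.

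The largest positive changes of the whole family were those of Hspa12b and Hspa12a, distant relatives of Hsp70. Hspa12b, known from endothelial cells, had 1817, 1119 and 868 on the single-positive arrays and 2748, 2373 and 3396 on the double-positive arrays. All double-positive values exceeded the single-positive ones. The log2 change of 1.20 (SE 0.33) missed the threshold with a limma adjusted p of 0.0654, and passed in 4 of 18 alternatives, namely a stricter filter (0.0488), array weights (0.0314), the Actb ratio as a covariate (0.0432) and leaving out single-positive array 1 (0.0400). Of the endothelium markers, 4 of 8 fell in the same arrays, as given above. Hspa12a had 767, 574 and 613 on the single-positive arrays and 2123, 963 and 1129 on the double-positive arrays, also without overlap, and a log2 change of 1.00 (SE 0.37, limma adjusted p = 0.177).

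Hspa4l (Apg-1), an Hsp110-type exchange factor induced by osmotic stress, was lower on each of its probe sets by uneven amounts. Its brightest probe set gave 1070.01, 1212 and 2569 on the single-positive arrays and 532, 743 and 891 on the double-positive arrays. These groups did not overlap, but the log2 change of -1.05 (SE 0.40) did not pass (limma adjusted p = 0.189). On a dimmer probe set it gave 1117, 669 and 1036 on the single-positive arrays and 45.4, 229 and 102 on the double-positive arrays. There the fall passed over all probe sets, with a log2 change of -2.84 (SE 0.52, limma adjusted p = 0.0197). All 5 tested Hspa4l probe sets had negative changes, from -2.84 to -1.05, and averaged over its probe sets the gene passed.

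The remaining Hsp70 genes did not pass. Hspa2, a form best known from spermatogenesis, had 6105, 7058 and 5902 on the single-positive arrays and 3822, 3248 and 6603 on the double-positive arrays, with double-positive array 3 inside the single-positive range, and a log2 change of -0.54 (95% interval -1.17 to 0.08). Hspa14, a ribosome-associated member, had 0.54 (limma adjusted p = 0.265) with groups apart. Hspa4 (Apg-2), an exchange factor, had -0.13 with overlap. Hspa1l, a neighbour of Hspa1a known from the testis, was not tested, with signals of 2.34 to 38.1 over the 6 arrays.

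**Figure D3:**
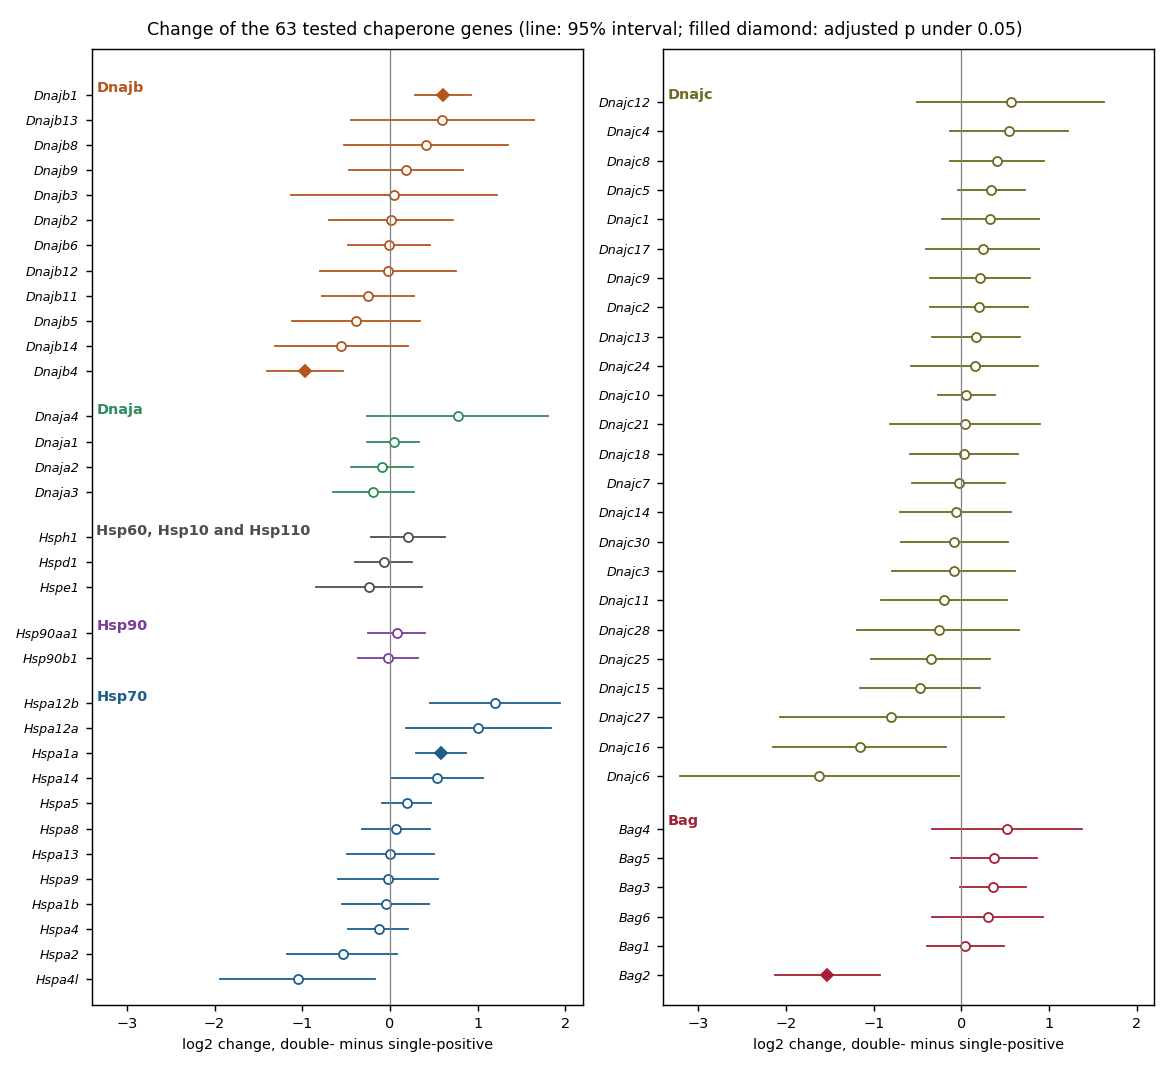
Log2 change, double-positive minus single-positive (x axis), of each tested chaperone gene by family (rows), with its 95% interval as a line. Filled diamonds mark the 4 genes that passed (Hspa1a and Dnajb1 above 0, Bag2 and Dnajb4 below), and open circles the 59 that did not.

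Neither of the 2 Hsp90 genes measured passed, and both had changes near 0. Hsp90aa1, the inducible cytosolic form, had 42086, 42869.9 and 38319 on the single-positive arrays and 51061, 36577 and 43404 on the double-positive arrays. The groups overlapped, and the spread was wider among the double-positive arrays. The log2 change was 0.08 (95% interval -0.25 to 0.40). Hsp90b1 (Grp94), the form of the endoplasmic reticulum that folds integrins and Toll-like receptors, had 28992, 26929 and 28938 on the single-positive arrays and 27812, 23882 and 32629.5 on the double-positive arrays. Its single-positive values lay within the double-positive range, and the log2 change was -0.02 (95% interval -0.36 to 0.32).

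The chaperones of the endoplasmic reticulum did not pass as genes either. Hspa5 (BiP), the Hsp70 of that compartment, which also keeps the sensors of the unfolded protein response inactive, gave 46680.3, 48753 and 41855 on the single-positive arrays and 54489, 54909.5 and 47325 on the double-positive arrays. The double-positive values were on average higher, and the groups overlapped through double-positive array 3. The log2 change was 0.19 (95% interval -0.09 to 0.47), and that of its 2 other probe sets 0.12 and 0.43. A grouping of 8 members of this compartment (Hspa5, Hspa13, Hsp90b1, Dnajb9, Dnajb11, Dnajc1, Dnajc3 and Dnajc10) was made after their values were known and need not be complete. None of the 8 passed (background 6.37%) and 0 had an unadjusted p under 0.05 (background 17.6%). Their median change was 0.03, with a range of -0.25 to 0.33. Dnajb12 (-0.02) and Dnajb14 (-0.56), membrane proteins of the same compartment, were outside this grouping and did not pass either.

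The DnaJ partners of Hspa5 each have their own task. Dnajb9 (ERdj4), which restrains the sensor Ern1, had 4512, 7485 and 5355 on the single-positive arrays and 5667, 4985 and 9359 on the double-positive arrays, with overlap and a log2 change of 0.18 (95% interval -0.47 to 0.83). Dnajc3 (P58IPK), which restrains the kinase Eif2ak3, had 7965, 7700.3 and 7957 on the single-positive arrays and 7756, 4424 and 11835 on the double-positive arrays. The single-positive arrays were alike, while double-positive arrays 2 and 3 lay on either side of them, and the log2 change was -0.09 (95% interval -0.79 to 0.61). Dnajb11 (ERdj3), which holds unfolded clients, had -0.25, and Dnajc10 (ERdj5), a disulfide reductase, had 0.05.

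The window of Hspa5 is shown for its ER stress element, CCAAT and CCACG with 9 bases of any kind between them (either strand, overlapping a CCAAT box), which was found for 3 members, Hspa5, Hsp90b1 and Dnajc3.

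Hspa5: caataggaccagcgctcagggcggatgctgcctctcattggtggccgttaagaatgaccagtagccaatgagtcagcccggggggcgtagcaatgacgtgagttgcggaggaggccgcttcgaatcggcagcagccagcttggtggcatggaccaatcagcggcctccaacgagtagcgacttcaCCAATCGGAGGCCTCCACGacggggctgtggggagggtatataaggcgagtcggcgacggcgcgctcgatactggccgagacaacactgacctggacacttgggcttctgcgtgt

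The window lies at chr2:34771840-34772139, plus strand, and its element, in capitals, begins 65 bases before the start. Such an element stood in 3 of 72 chaperone windows (4.17%) and in 0.119% of all windows. In the list of 20 further genes of ER stress and folding, none passed in limma (background 6.37%), 2 had an unadjusted p under 0.05, and the median change was -0.02. The smallest p-values were those of Atf4, a transcription factor of the stress response (log2 change 0.53, limma adjusted p = 0.115), the disulfide isomerase Pdia6 (0.39, 0.159) and Xbp1 (0.26, 0.406).

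A grouping of 6 mitochondrial members (Hspa9, Hspd1, Hspe1, Dnaja3, Dnajc11 and Dnajc15) was made after their values were known and need not be complete. On their brightest probe sets all 6 had changes below 0, from -0.47 to -0.02, as had 6485 of all 13464 genes tested. Since the values were known, nothing is read from the shared sign. None of the 6 passed in limma (background 6.37%) or had an unadjusted p under 0.05 (background 17.6%). Dimmer probe sets of 4 of them had changes above 0, namely 0.06 for Hspa9, 0.16 for Dnaja3, 0.03 for Hspe1 and 0.09 for Dnajc11. Hspd1 (Hsp60) had 24054, 26886 and 21853 on the single-positive arrays and 22795, 23622 and 22558 on the double-positive arrays. The groups overlapped, with a log2 change of -0.07 (95% interval -0.40 to 0.25). Hspe1 (Hsp10), its lid, had 4082, 7634 and 5067 on the single-positive arrays and 4403, 4019 and 5458 on the double-positive arrays, and single-positive array 2 stood above the rest. Its log2 change was -0.24 (95% interval -0.84 to 0.37). Hspa9 (mortalin), the Hsp70 of the import motor, had -0.02 (95% interval -0.59 to 0.55), Dnaja3 (Tid1), its DnaJ partner, had -0.19, and Dnajc15 had -0.47. Among 10 further genes of mitochondrial quality control none passed (background 6.37%), at a median change of 0.02. The smallest p belonged to Timm44 (-0.30, limma adjusted p = 0.475), which tethers Hspa9 to the import channel, followed by the protease subunit Clpp (0.45) and Grpel2 (0.38).

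Of 4 Dnaja genes none passed in limma, of 12 Dnajb genes 1 rose and 1 fell (16.7% called), and of 24 Dnajc genes none passed, beside a background of 6.37%. At an unadjusted p under 0.05 there were 0 Dnaja genes and 2 Dnajc genes (Dnajc6 and Dnajc16), beside a background of 17.6%. Dnaja2, a partner of Hspa8, had -0.09 (95% interval -0.45 to 0.26), and Dnaja4 had 0.77 (95% interval -0.26 to 1.80). Dnajb14, a membrane protein of the endoplasmic reticulum, had -0.56 and Dnajb5 had -0.39, the latter with groups apart and a limma adjusted p of 0.639. The widest intervals belonged to dim members, as Dnajc6 shows.

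Dnajc proteins share the J domain and little else. Dnajc6 (auxilin), which uncoats clathrin vesicles in neurons, had 105, 448 and 388 on the single-positive arrays and 169.7, 108 and 8.8 on the double-positive arrays. Single-positive array 1 was as low as the double-positive arrays, and the log2 change of -1.62 had a 95% interval of -3.21 to -0.03 (limma adjusted p = 0.274). Dnajc5 (cysteine string protein), a chaperone of synaptic vesicle release, had 10888, 11234 and 9655 on the single-positive arrays and 12684, 14457 and 13001 on the double-positive arrays. The groups were apart, with a log2 change of 0.34 (95% interval -0.04 to 0.72), and the 4 other tested Dnajc5 probe sets had changes between 0.32 and 0.63. Dnajc8, a protein linked to splicing, had 12359.98, 16369 and 12874 on the single-positive arrays and 21566, 22602 and 12419.9 on the double-positive arrays, where double-positive array 3 lay below the single-positive median. Its log2 change was 0.41 (95% interval -0.13 to 0.94), and the gene passed without double-positive array 3. Dnajc16 had -1.16 (limma adjusted p = 0.189) with single-positive array 2 near the double-positive values, and it passed without that array.

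The other tested DnaJ genes had adjusted p-values in limma from 0.422 upwards. Among them Dnajc4 was higher on every double-positive array, with 1075, 1178 and 939 on the single-positive arrays and 1674, 1845 and 1213 on the double-positive arrays and a log2 change of 0.54 (95% interval -0.13 to 1.22). The remaining Dnajc genes lay between -0.80 for Dnajc27 and 0.56 for Dnajc12. They include Dnajc2 (0.20), which sits on ribosomes, Dnajc7 (-0.03), which links Hsp70 and Hsp90, Dnajc9 (0.21), a histone chaperone, and Dnajc13 (0.17), which works at endosomes, and also Dnajc14, Dnajc17, Dnajc18, Dnajc21, Dnajc24, Dnajc25, Dnajc28 and Dnajc30. The remaining Dnajb genes were Dnajb2 (0.01), known from neurons, Dnajb12 (-0.02), a protein of the endoplasmic reticulum membrane, and Dnajb3, Dnajb8 and Dnajb13, known from the testis, with 0.04, 0.41 and 0.59. All 95% intervals of these genes include 0.

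As probe sets, 133 of the 164 were above the filter, and 5 of them (3.76%) passed over all 27022 probe sets tested, beside a background of 3.42%. The 2 that rose (background 1.01%) were that of Hspa1a and the dimmer one of Dnajb1. The 3 that fell belonged to Bag2, Dnajb4 and Hspa4l (background 2.42%). Several tested probe sets were available for 36 of the 63 genes. Their changes had 1 sign throughout in 19 genes and mixed signs in 17, and the range within a gene had a median of 0.41 on the log2 scale. It was widest for Hspa13, a membrane-anchored microsomal ATPase, whose 4 probe sets ran from -1.04 to 1.29 and none of which passed. Without any 1 single-positive array no member probe set passed in limma.

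**Figure D4:**
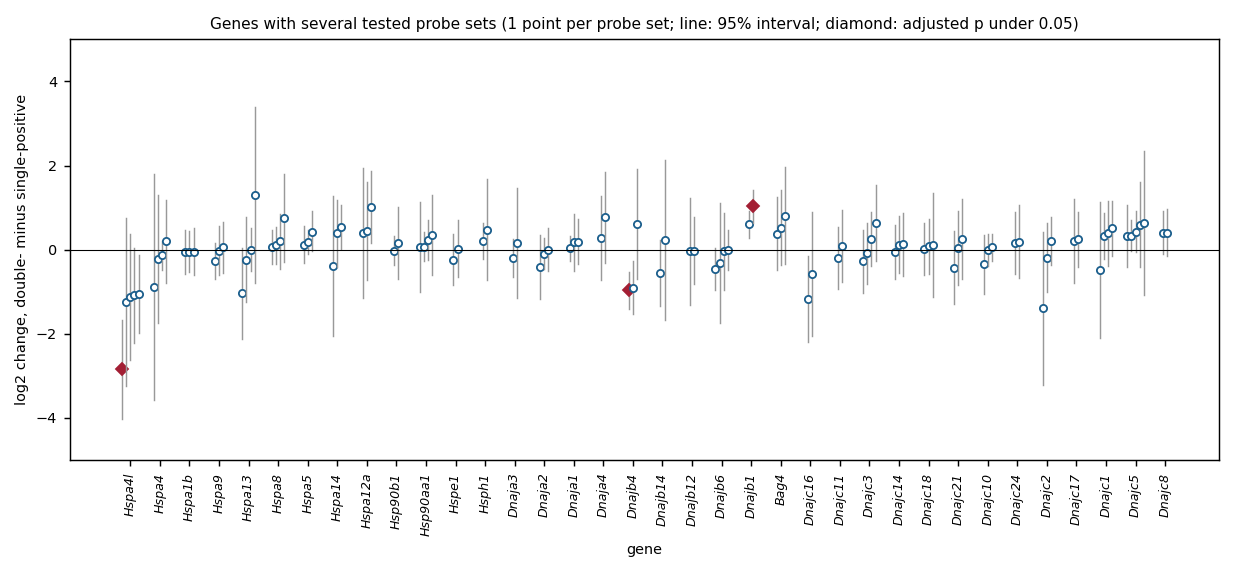
Log2 change, double-positive minus single-positive (y axis), of each tested probe set of the 36 genes with several (x axis), with 95% intervals as lines. Diamonds mark the 3 probe sets here that passed over all probe sets, 1 each of Hspa4l, Dnajb4 and Dnajb1, and the 3 of Hspa1b lie together near 0.

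Of other machinery of protein folding, most lists had no gene that passed, beside a background of 6.37% of all genes tested. At that share a short list can hold none. Of 14 tested cochaperones of Hsp90 and Hsp70 none passed, with a median change of 0.13 and the smallest p for Unc45a, a myosin chaperone (-0.67, limma adjusted p = 0.314), St13, which steadies Hsp70 (0.30, 0.5), and Ahsa1, the activator of Hsp90 (-0.45, 0.531). Of 14 genes of the chaperonin TRiC and prefoldin none passed, with a median of -0.02, and those of smallest p were Pfdn5 (0.39), Cct6a (-0.27) and Cct4 (-0.20). Of the 4 genes in the heat shock factor list, Hsbp1 (-0.14) and Hsf4 (0.07) were tested and did not pass. Hsf1 was not named by any probe set with 1 symbol and was not analysed here. Hsf2 was below the filter, with signals of 35.1 to 104.3 on its brightest probe set, and was not tested. In none of these 3 lists, nor in that of mitochondrial quality control, did any gene have an unadjusted p under 0.05 (background 17.6%).

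The exception was the list of small heat shock and muscle chaperones, in which 6 of 10 tested genes fell, none rose and 4 did not pass (background of falls 4.38%), at a median change of -1.31. Hspb6 (Hsp20), a small heat shock protein of smooth muscle, fell from 5463 ± 1251 to 804 ± 409 (SD, n = 3 each), a log2 change of -2.86 (SE 0.43, limma adjusted p = 0.00302), and Unc45b, the chaperone of muscle myosin, had -2.35 (SE 0.37, 0.00423). Hspb8, the partner of Bag3, had 12811, 10123 and 12403 on the single-positive arrays and 6175, 5211 and 6515 on the double-positive arrays. Those groups were apart, and Hspb8, filamin C (Flnc) and Synpo2, all linked to Bag3 in the clearing of filamins, fell with log2 changes of -0.98, -0.84 and -3.12, while Bag3 had 0.36 as given above and did not pass. The count of 6 became 2 on omitting single-positive array 1 or array 3, 3 on omitting single-positive array 2 or with no variance trend, and 4 with median centring, no filter or averaged probe sets. The summed signal of this list was 84287 to 89649.6 on the single-positive and 26087 to 39428 on the double-positive arrays, and it moved with that of the smooth muscle markers, whose part in it was not tested.

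**Figure D5:**
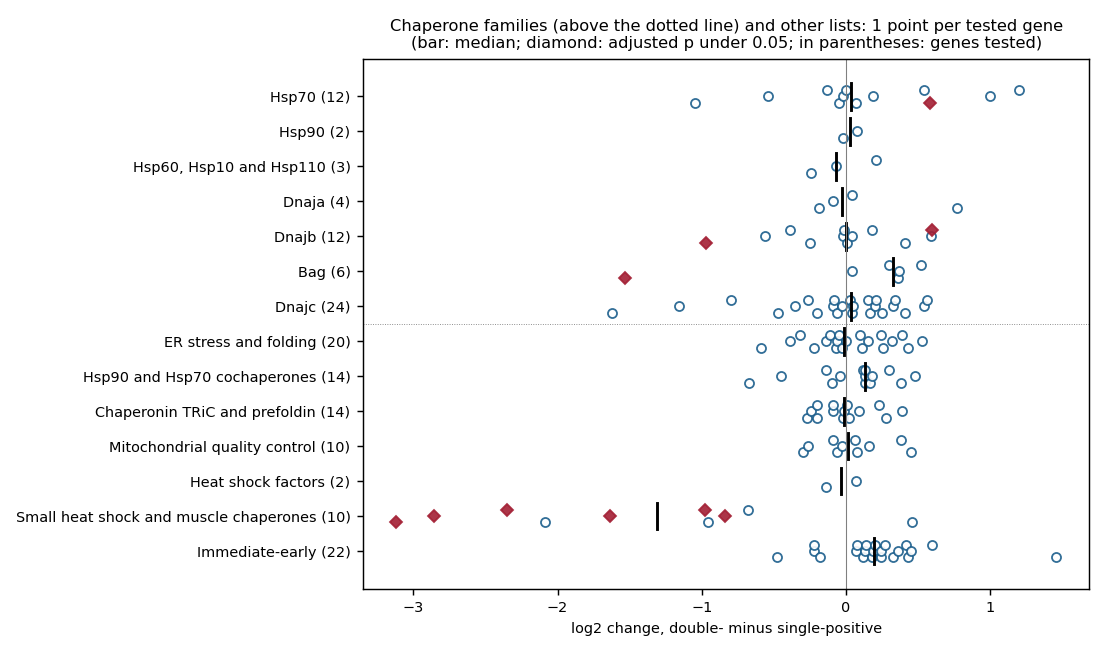
Log2 change, double-positive minus single-positive (x axis), of each tested gene in the chaperone families (rows above the dotted line) and in other lists of protein folding and of immediate-early genes (rows below), with black bars at medians and diamonds for genes that passed. The small heat shock and muscle chaperones have a median of -1.31, and the other medians lie between -0.07 and 0.33.

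Among the double-positive arrays, array 2 held the lowest of the 3 values for 31 of the 63 members (49.2%) and for 30.9% of all genes, and array 3 held the highest for 31 (49.2%) against 32.1%. The Actb 3' to 5' log2 ratio was 1.48 on array 2 and 3.00 on array 3, the lowest and the highest of the 6 arrays. That of the Gapdh control was 4.1 on double-positive arrays 1 and 2 and 4.58 on double-positive array 3. On the single-positive arrays the Gapdh ratio was 3.93, 3.56 and 4.36, so that double-positive array 2 was not the lowest by Gapdh. The part of these ratios in the chaperone values was not tested. Hspa1b, Dnajc3, Hspa9 and Dnajb6 are examples of members lowest on array 2, and without that array the median change of the members was 0.15 in place of 0.04. The SD within a group had a median of 0.21 on the log2 scale for members in the single-positive arrays and 0.28 in the double-positive arrays, against 0.30 and 0.38 for all genes.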

How the data were processed

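The deposited values are linear signal intensities, made by the authors with GCOS per the submitters' processing notes, with algorithm and version not given in the sources used here. Every array had a 2% trimmed mean of 1500.01, so they had been scaled to a common level. Amplification in 2 rounds favours the 3' ends of transcripts. The number of arrays limits the precision.

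GEO's platform annotation named the probe sets (of 45037 beside 64 controls, 34945 had 1 symbol, 932 several and 9160 none listed). The offset of 25.042 before log2 was the 20th percentile of all values, and arrays were not rescaled (their medians differed 1.36-fold). The brightest probe set stood for a gene and had to exceed a mean of 6.82 in log2, the 40th percentile, which 13464 of 18193 genes did. limma 3.58.1 in R 4.3.3 (lmFit, eBayes with a variance trend) compared the groups two-sided over all genes, with Benjamini-Hochberg adjustment, and likewise over all 27022 probe sets above the filter. SE and 95% intervals are those of the moderated fit. The procedure was tested on simulated data.

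The members and lists were chosen with earlier results of these data known. Named by rule were all members that passed, in each family the 3 of highest mean and the 3 of smallest p, the best known stress chaperones and, of each other list, the 3 of smallest p. Other members were named, and the heat-inducible, reticulum and mitochondrial groupings made, after their values were seen. At most 13 probe sets had the same value on any pair of arrays. Promoter windows come from RefSeq (GRCm38.p6).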

Additional observations from a re-analysis of the deposited data

How the results depend on the processing

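Alternatives covered quantile normalization, median centring, offsets of 10 and 100, no filter and a filter at the 60th percentile, the mean of all probe sets or unshared probe sets only, array weights, no variance trend, a block for the replicate number, the Actb 3' to 5' ratio as a covariate, and leaving out each array, with the filter and the choice of probe sets repeated each time. The number of all genes that passed (857) was 1345 with array weights and 466 to 1084 when 1 array was left out. The 4 chaperone genes became 1 with median centring or with no variance trend, 3 with no filter, and 1 to 5 when 1 array was left out. They became 5 with the filter at the 60th percentile or the Actb ratio as a covariate. With array weights they became 6 (9.52% of members, 9.99% of all genes). The 5 chaperone probe sets became 2 with median centring or with no variance trend, 3 with no filter, and 0 to 6 when 1 array was left out. They became 7 with array weights, and 6 with quantile normalization, the filter at the 60th percentile or the replicate block. The median change of the chaperone genes (0.04) lay between -0.01 and 0.15 when 1 array was left out and between 0.01 and 0.09 otherwise. The cause of these shifts was not tested. No named chaperone that passed changed direction in any setting. Same-numbered arrays correlated at 0.19, 0.05 and 0.02 in their deviations from the group means, so the numbers were not taken to pair the samples; with the replicate block 4 chaperone genes and 1014 of all genes passed, and 2 of the 3 single-positive arrays correlated best with their own number. With 3 arrays a group, the intervals given bound what could be seen, and dim members such as Dnajc6 are limited most.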
